A study of Homo sapiens with 18 samples.

Results

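The comparison described here sets the 3 libraries labelled AMO1 gN1E against the 3 libraries labelled H929 gN1E, 6 of the 18 RNA-seq libraries of the series, grouped by cell line and gapmeR label. AMO1, LP1 and NCI-H929 (labelled H929) are established human multiple myeloma cell lines, and each was given either a gapmeR against NEAT1 (label gN1E) or a scrambled gapmeR (label SCR), with 3 libraries per line and label. A gapmeR is an antisense oligonucleotide that directs the cell to cut the RNA it pairs with, and here it was taken up by gymnosis, without a carrier. The cells were collected after 48 h according to the treatment protocol, although the design text of the series gives that number in days. No gene was altered in either group, so the groups differ in the line on the label and share the gapmeR and the time. The comparison asks which genes are near absent in one group and well expressed in the other, and how the counts in each direction bear on RNA from more than 1 line in a library.

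The labels have limits that come before any result. NEAT1, the target, was high and not low in the libraries labelled gN1E, so its level goes against the gapmeR label. Library names written in the deposited tables swap the gapmeRs of every line and also H929 for LP1. They call the AMO1 gN1E libraries AMO1 SCR and the H929 gN1E libraries LP1 SCR, with the letter D in place of C for H929 gN1E replicate C. Each library is therefore called by its label, and the label is not taken as proof of the line. By the study's methods, the lines came from the DSMZ collection, which had typed their DNA by short tandem repeats, and stocks frozen on arrival were used, while the files hold no typing of the cells sequenced. The total counts per library were 49784737, 28061606 and 29663430 for AMO1 gN1E replicates A, C and D. They were 56022788, 52856172 and 59302536 for H929 gN1E replicates A, B and C. Levels are counts per 1000000 counted reads (CPM) on library sizes scaled by TMM over these 6 libraries. LP1 levels, percents of an LP1 level and the genes whose percents are given use the TMM scale of the 9 libraries labelled gN1E. Counts of near absent genes or of ratios between LP1 and another label use the scale of the 6 libraries compared. Percents of an LP1 SCR level, and SCR shares over genes that LP1 or AMO1 lacks, use the scale of all 9 libraries labelled SCR. Other SCR values use the scale of the 6 AMO1 and H929 libraries labelled SCR. The p-values measure only the spread between these libraries, which may be technical, since the labels do not say whether replicates came from separate cultures. The smallest two-sided p that an exact permutation of 3 libraries against 3 can reach is 0.1.

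Myeloma is a malignancy of plasma cells, the antibody-secreting end of the B cell lineage, and a plasma cell clone carries its own rearranged immunoglobulin V segments for the heavy and the light chain. The V segments that a line transcribes are therefore a mark of its clone. Recurrent translocations raise NSD2 and FGFR3, MAF or a cyclin D gene in myeloma, and NCI-H929 and LP-1 are both known to carry the translocation that joins chromosomes 4 and 14 and raises NSD2 and FGFR3.

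NEAT1 (ENSG00000245532.11), the long noncoding RNA that scaffolds paraspeckles, had 486, 566 and 531 CPM in the libraries labelled AMO1 gN1E and 574, 476 and 557 CPM in those labelled H929 gN1E. The ranges overlapped. The log2 difference, H929 label minus AMO1 label here and in all that follows, was 0.02 (standard error 0.071), with an adjusted p of 0.837 (Benjamini-Hochberg, over edgeR's quasi-likelihood test) and a two-sided exact permutation p of 0.9. The mean of the gN1E libraries was 6.12-fold the SCR mean under the AMO1 label and 6.49-fold under the H929 label, so both groups compared here are the high NEAT1 groups of their label. MALAT1, the long noncoding RNA gene beside it, had 4679, 4759 and 4961 CPM under the AMO1 label and 4326, 3666 and 3405 CPM under the H929 label. All 3 AMO1 values lay above all 3 H929 values, with a log2 difference of -0.34 (standard error 0.071, adjusted p = 0.00156, Benjamini-Hochberg over edgeR's quasi-likelihood test; two-sided exact permutation p = 0.1). In the SCR libraries the log2 difference of MALAT1 was -0.07, with an adjusted p of 0.555 by edgeR's quasi-likelihood test.

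Plasma cell markers were present in all 6 libraries. The list of 16 markers summed to 17059, 16037 and 15349 CPM in AMO1 gN1E replicates A, C and D, and to 19139, 20076 and 20161 CPM in H929 gN1E replicates A, B and C. SDC1, the syndecan used to sort plasma cells, was the most abundant of them in CPM, with 12006, 11223 and 10414 CPM under the AMO1 label and 13708, 14665 and 14748 CPM under the H929 label. None of the 16 was under 0.1 CPM in all 6 libraries, and CD27, a receptor of memory B cells and plasma cells, was the lowest with at most 0.134 CPM. Of the 15 tested, 7 were higher and 1 was lower under the H929 label at an adjusted p under 0.05, beside 21.0% of all 23226 genes tested higher and 17.0% lower, and the median log2 difference was 0.11 beside 0.02 over all genes tested. XBP1, a transcription factor of secretory cells, had 96.1, 101 and 108 CPM under the AMO1 label and 295, 309 and 302 CPM under the H929 label. The log2 difference was 1.58 (standard error 0.051), the largest of the list. CD38, a surface enzyme and therapy target, rose from 91.2 to 161 mean CPM. All 6 libraries thus expressed markers of the labelled cell type, at sums that did not overlap between the labels.

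Markers of 4 other groups of cells are given next, and 1 further list was read and is not shown. Of 16 T and NK cell markers, 8 were under 0.1 CPM in all 6 libraries, CD2 and CD3D among them, and the list summed to 76.8, 64.4 and 68.9 CPM under the AMO1 label and to 38.9, 39.4 and 35.8 CPM under the H929 label. Most of that was TRBC2, a T cell receptor constant gene, at 39.6 mean CPM under the AMO1 label and 24.0 under the H929 label, and CD3E, a T cell receptor subunit, at 20.8 and 8.50. Of the 5 tested, 4 were lower and 0 were higher under the H929 label (edgeR's quasi-likelihood test, adjusted p under 0.05), beside 17.0% and 21.0% of all genes tested, with a median log2 difference of -0.73 beside 0.02. Of 14 myeloid markers, 8 were under 0.1 CPM in all 6 libraries, MPO and S100A8 among them, and the list summed to at most 0.787 CPM in any library, with CD14 the most abundant and 0 of 3 tested genes called. The 10 epithelial markers summed to 18.5 mean CPM under the AMO1 label and 19.5 under the H929 label. Inside this list KRT8, a keratin, went from 1.71 to 11.8 mean CPM and CDH1, a cadherin, from 6.47 to 1.95, while EPCAM was at most 0.243 CPM in any library, and 1 of 8 tested genes was higher and 4 were lower, beside the same 21.0% and 17.0%. Of 12 fibroblast and endothelial markers, 8 were under 0.1 CPM in all 6 libraries, COL1A2 and VWF among them, and the list summed to 2.90 and 8.80 mean CPM. PECAM1, an adhesion molecule also made by plasma cells, accounted for that gap with 0.677 and 7.17 mean CPM, and 1 of 4 tested genes was higher and 1 was lower, beside 21.0% and 17.0%. In bulk RNA, fewer cells of a type and less RNA per cell cannot be told apart.

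By edgeR's quasi-likelihood test, Benjamini-Hochberg adjusted with a threshold of 0.05, 8812 of 23226 genes tested differed between the labels (37.9%). Of these, 4872 were higher and 3940 were lower under the H929 label. With a 1.5-fold limit at an adjusted p under 0.1 by the same test, the count was 3988. Most genes well expressed under the AMO1 label, called or not, differed little. Over the 10704 genes with at least 5 CPM in all 3 AMO1 gN1E libraries, the 5th and 95th percentiles of the ratio of H929 to AMO1 mean CPM were 0.675 and 1.47. Genes low under the AMO1 label are not among them. The extremes were not balanced, and they are described from here on.

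A gene is called near absent here in a group where all 3 libraries were under 0.1 CPM, and well expressed where all 3 had at least 5 CPM. Under these limits 86 genes were well expressed under the H929 label and near absent under the AMO1 label, 0.370% of the genes tested. Only 1 gene, ABCA8, was well expressed under the AMO1 label and near absent under the H929 label, 0.00431% of the genes tested. As a share of the genes that could have met the rule, the counts were 86 of 10894 and 1 of 10704. These genes were chosen by the contrast itself, so their levels in the gN1E libraries are a description and carry no test.

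**Figure D1:**
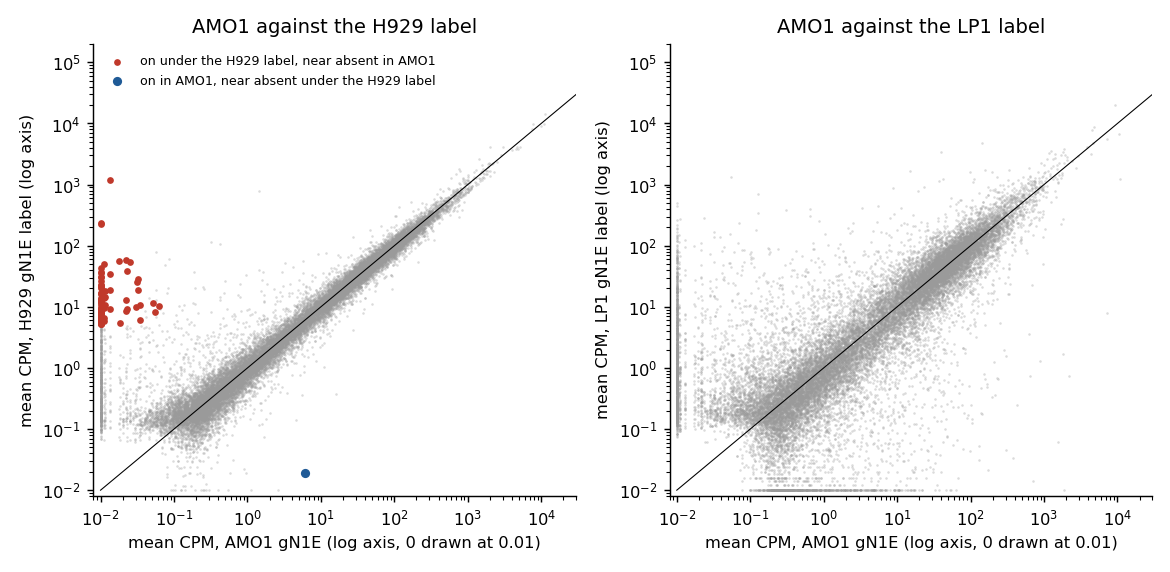
Mean CPM of each gene tested, on log axes with 0 drawn at 0.01: the left panel sets the libraries labelled AMO1 gN1E against those labelled H929 gN1E, and the right panel against those labelled LP1 gN1E, each point being 1 gene. The 86 red genes lie far above the line of equal levels and the 1 blue gene, ABCA8, far below it, whereas against the LP1 label genes spread widely on both sides.

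The same counts in the other comparisons, which share these libraries, were as follows. Between the labels AMO1 gN1E and LP1 gN1E, 306 genes were well expressed under LP1 and near absent under AMO1, and 113 the other way. Between H929 gN1E and LP1 gN1E the counts were 86 under LP1 and 109 under H929. The imbalance of 86 to 1 between the AMO1 and H929 labels was thus wider than that of 306 to 113 or of 86 to 109, and the difference between these imbalances was not tested.

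Of the 86 genes, 77 were protein coding, 5 were long noncoding RNAs, 3 were immunoglobulin V segments and 1 was a pseudogene. No read fell on 50 of them in the 3 AMO1 gN1E libraries, and no read fell on 33 of them in any of the 6 AMO1 libraries. The most that any of the 86 had was 7 reads over the 3 AMO1 gN1E libraries, while the fewest over the 3 H929 gN1E libraries was 875. Their mean level under the H929 label ran from 5.22 to 1189 CPM, with a median of 10.2 CPM, and 21 of them exceeded 20 CPM. The median over the 86 genes was 10.5, 10.3 and 9.84 CPM in H929 gN1E replicates A, B and C. Of them, 65, 72 and 68 had 0 reads in AMO1 gN1E replicates A, C and D. The rule set limits in every library, so these values do not test how alike the replicates were.

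The values nearest to the limits show how sharp they were. WWC2, a scaffold protein gene of the Hippo pathway, was just inside with a lowest H929 value of 5.01 CPM, followed by OCRL, NUDT11, NEXMIF and LINC02562 at 5.03 to 5.12. CDH2, a cadherin gene, was just outside with 4.97 CPM, followed by SEMA6D, KCTD15, NTRK3 and ZNF704 at 4.92 to 4.84. On the AMO1 side, CLECL1P was just inside with a highest value of 0.0818 CPM, followed by PTPRK, CD276, MAGI1 and SMAD1 at 0.0695 to 0.0672. RAPGEF5 was just outside with 0.101 CPM, followed by ADM, H4C4, GALNT18 and PVR at 0.102 to 0.104.

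The genes with the highest level per kb of transcript under the H929 label, V segments aside, are given next with every library. Folds and ratios divide the reads of a group over its summed library sizes, so they differ from ratios of mean CPM. Folds against a group with 0 reads are lower bounds computed with 3 reads over the group. Where the group had 1 to 4 reads, the ratio carries an exact Clopper-Pearson interval at 95%, and intervals and bounds cover counting error only. RHOB (ENSG00000143878.10, hg38 chromosome 2, 20447074 to 20449440), a small GTPase, led with 14.6 CPM per kb. Its level was 0.0409, 0 and 0 CPM under the AMO1 label and 33.3, 35.8 and 34.9 CPM under the H929 label. With 2 reads in the AMO1 libraries, the ratio was 1861 (interval 515 to 15370). FHL1, a LIM domain protein of muscle and other cells, had 0, 0 and 0.0672 CPM under the AMO1 label and 55.0, 60.2 and 62.8 CPM under the H929 label. Only AMO1 gN1E replicate D held its 2 reads, and the ratio was 3191 (interval 883 to 26352). APP, the amyloid precursor protein, had 0.0409, 0 and 0.0336 CPM under the AMO1 label and 54.2, 55.3 and 50.8 CPM under the H929 label. It rested on 3 reads in AMO1, which gave a ratio of 1910 (interval 653 to 9263). FBP1, a bisphosphatase of gluconeogenesis, had 0.0614, 0.0348 and 0 CPM under the AMO1 label and 17.3, 20.9 and 19.4 CPM under the H929 label, a ratio of 514 on 4 reads (interval 201 to 1889).

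The remaining 8 of the 12 genes include 2 long noncoding RNAs. RELN (ENSG00000189056.15, hg38 chromosome 7, 103471381 to 103989658), which encodes the matrix glycoprotein reelin, had 0 CPM in all 3 AMO1 gN1E libraries and 217, 243 and 232 CPM in those labelled H929. It was at least 8261-fold higher under the H929 label, on the most reads of the 77 protein coding genes. ITGA8, an integrin alpha subunit, had 0, 0 and 0.0336 CPM under the AMO1 label and 48.8, 51.0 and 51.9 CPM under the H929 label. With 1 read in AMO1, its ratio was 5432 (interval 975 to 214586). CTHRC1, a secreted matrix protein, also had 1 read in AMO1, with 0, 0.0348 and 0 CPM against 14.3, 14.9 and 14.3 CPM and a ratio of 1558 (interval 279 to 61556). ITM2A, a membrane protein, had 0 CPM in all 3 AMO1 libraries and 16.0, 17.1 and 17.7 CPM under the H929 label, at least 607-fold higher. For BEST3, a bestrophin channel, 0 CPM in all 3 AMO1 libraries stood against 35.7, 36.1 and 35.0 CPM, at least 1274-fold higher. BEX3, an X-linked adaptor protein, went from 0 to 6.16, 5.93 and 5.20 CPM, at least 206-fold higher. The long noncoding RNA LINC02817 went from 0 to 35.4, 29.3 and 29.1 CPM, at least 1118-fold higher, and LINC02562 from 0 to 5.29, 5.26 and 5.12 CPM, at least 187-fold higher. In each of these 12 genes the lowest H929 library lay far above the highest AMO1 library, which the rule itself fixes.

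**Figure D2:**
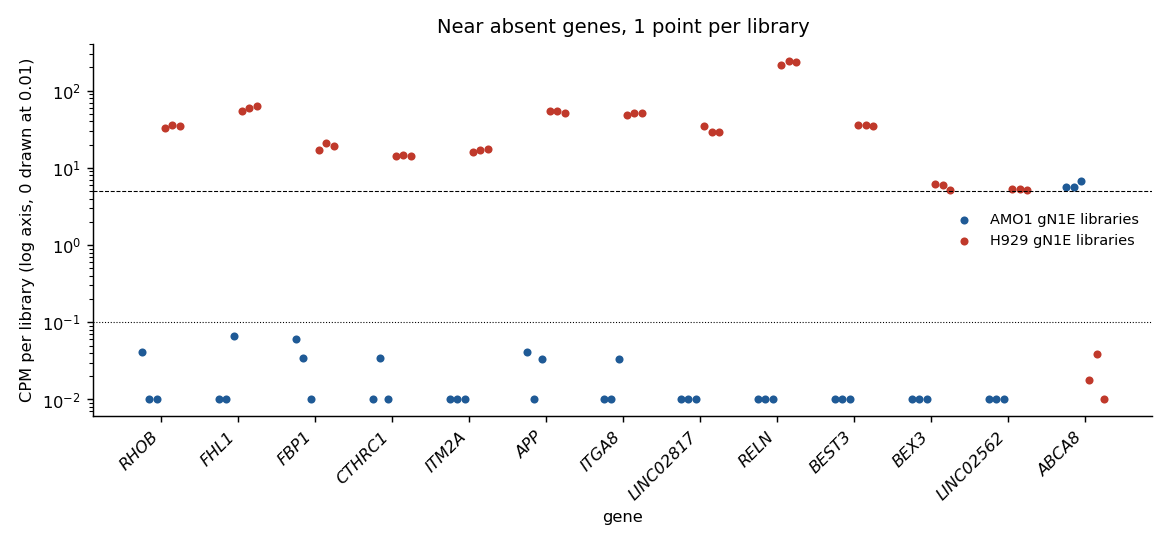
CPM in each of the 6 libraries (log axis, 0 drawn at 0.01) for the 12 genes named first and for ABCA8, with AMO1 gN1E in blue and H929 gN1E in red; the lines mark 0.1 and 5 CPM. RELN lies between 217 and 243 CPM under the H929 label with 0 reads under the AMO1 label, and ABCA8 alone shows the opposite order.

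Myeloma oncogenes were among the 86. MAF, a transcription factor raised by translocation in some myelomas, had 0.0205, 0 and 0 CPM under the AMO1 label and 29.7, 29.4 and 33.7 CPM under the H929 label. Its ratio was 3336 on 1 read (interval 599 to 131794). MYCN, a MYC family transcription factor, had 0 CPM in all 3 AMO1 libraries and 5.95, 7.45 and 6.04 CPM under the H929 label, at least 231-fold higher. Of the 14 genes on the list of translocation partners and D cyclins, 8 were higher and 2 were lower under the H929 label, beside 21.0% and 17.0% of all genes tested, and the median log2 difference was 0.33, also with MYCN at its bound. FGFR3, a growth factor receptor, was named after its values were seen. It had 0.225, 0.139 and 0.0336 CPM under the AMO1 label, 1.49, 1.27 and 1.52 CPM under the H929 label, and 718, 717 and 723 CPM under the LP1 label. NSD2, a histone methyltransferase, had a mean of 208 CPM under the AMO1 label, 266 under the H929 label and 1657 under the LP1 label. The H929-labelled libraries thus had 0.191% of the FGFR3 level and 15.5% of the NSD2 level of the LP1-labelled ones, although NCI-H929 and LP-1 are both known for raised NSD2 and FGFR3. CCND2, a cyclin of the G1 phase, had 1952, 1854 and 1944 CPM under the AMO1 label, 1600, 1730 and 1672 CPM under the H929 label, and a mean of 1.70 CPM under the LP1 label. CCND1, a related cyclin, had mean CPM of 38.4 and 28.4, with a log2 difference of -0.44 (standard error 0.064). ITGB7, an integrin subunit that rises with MAF in myeloma, had mean CPM of 150.2 and 232, with a log2 difference of 0.63 (standard error 0.050).

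ABCA8 (ENSG00000141338.15, hg38 chromosome 17, 68867289 to 68955392), a lipid transporter, was the single gene in the opposite class. It had 5.71, 5.74 and 6.86 CPM under the AMO1 label and 0.0181, 0.0384 and 0 CPM under the H929 label, with 0 CPM in all 3 LP1 gN1E libraries. The ratio of AMO1 to H929, on reads over summed library sizes, was 337 on 3 reads (interval 115 to 1639). All 3 AMO1 values lay close above the limit of 5 CPM. SOX5, a transcription factor named after its values were seen, had the next lowest H929 level as a percent of the AMO1 level, with 15.1, 17.5 and 15.7 CPM under the AMO1 label and 0.598, 0.384 and 0.149 CPM under the H929 label. CELSR1, a cadherin of planar cell polarity named in the same way, had 12.3, 10.9 and 10.0 CPM against 1.07, 0.998 and 1.04 CPM.

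Of the 10704 genes well expressed under the AMO1 label, 110 (1.03%) had an H929 level under 0.5 of the AMO1 level, 15 under 0.25, 3 under 0.1 and 1 under 0.01. In the opposite direction, of the 10894 genes well expressed under the H929 label, 307 (2.82%) had an AMO1 level under 0.5 of the H929 level, 177 under 0.25, 140 under 0.1 and 104 under 0.01. These counts are nested, so they were also taken by band. Between 0.25 and 0.5 of the reference level there were 95 genes low under the H929 label and 130 low under the AMO1 label, and 103 and 101 in the SCR libraries. In the gN1E libraries there were 12 and 37 between 0.1 and 0.25, 2 and 36 between 0.01 and 0.1, and 1 and 104 under 0.01. The imbalance was thus largest in the lowest band, where genes chosen by the rule weigh most. Set beside this, of the 10608 genes well expressed in AMO1 on the scale shared with LP1, 1747 (16.5%) had an LP1 level under 0.5 of the AMO1 level and 188 under 0.01.

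In RNA pooled from several sources, each gene's level is the mean of its levels in the sources, weighted by their shares. For this reason the level of each gene under the H929 label was also taken as a percent of its AMO1 level. The lowest values were 0.309% for ABCA8, 2.34% for SOX5 and 9.34% for CELSR1. After them came 15.3% for ITGAX, an integrin subunit of myeloid and some B cells, and 15.6% for LTF, the iron-binding lactoferrin. No other of the 10704 genes was under 10%, and the 1st percentile was 0.496 of the AMO1 level. The value of ABCA8, a ratio of mean CPM, rests on 3 reads, with an exact interval of 0.0610% to 0.871% for reads over summed library sizes, and it was 0.147% without H929 gN1E replicate B and 0.461% without H929 gN1E replicate C. These genes are the lowest of 10704 in the same gN1E values, so the percents describe the choice and set no limit on a share. In the SCR libraries, not used to choose them, ABCA8 stood at 0.452%, SOX5 at 1.90% and CELSR1 at 9.28% of the AMO1 SCR level. Whether the AMO1 cells sequenced here and any AMO1 RNA under the H929 label had the same level of these genes was not tested.

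Genes that AMO1 has and LP1 lacks give such percents without the H929-labelled libraries in the choice. There were 113 genes with at least 5 CPM in all 3 AMO1 gN1E libraries and under 0.1 CPM in all 3 LP1 gN1E libraries. Under the H929 label their median level was 81.8% of the AMO1 level, with 81.9%, 79.8% and 82.4% in replicates A, B and C, and the ratio of the summed levels was 78.3%. Over all 10704 genes well expressed under the AMO1 label the median was 0.99986 of the AMO1 level, with 1.03% of them under 0.5. Over the 113 genes the 5th and 95th percentiles were 34.0% and 141%. Of the 113, 96 were well expressed under the H929 label, 14 were under 50% of the AMO1 level and 1, ABCA8, was near absent. These genes share libraries and are not replicates, so no p is given for the median.

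Genes that LP1 has and AMO1 lacks gave a different picture. There were 302 of them on the scale of 9 libraries, beside 306 on that of the AMO1 and LP1 libraries alone, and their median level under the H929 label was 5.75% of the LP1 level, with 5.54%, 5.76% and 5.78% in replicates A, B and C. The spread was wide: 80 were near absent under the H929 label, 118 were under 2% of the LP1 level, 64 were well expressed and 20 exceeded 50%. The quartiles were 0.275% and 21.4%, and the ratio of the summed levels was 13.1%. Over all 10671 genes well expressed under the LP1 label, on the scale of the H929 and LP1 libraries, the median was 0.912 of the LP1 level. MAGEA4 and SSX1, cancer-testis antigens named after their values were seen, had at least 208 and 108 CPM in each LP1 gN1E library and at most 0.0544 and 0.0192 CPM in any H929 gN1E library. At the other end, RELN stood at 979% of its LP1 level.

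**Figure D3:**
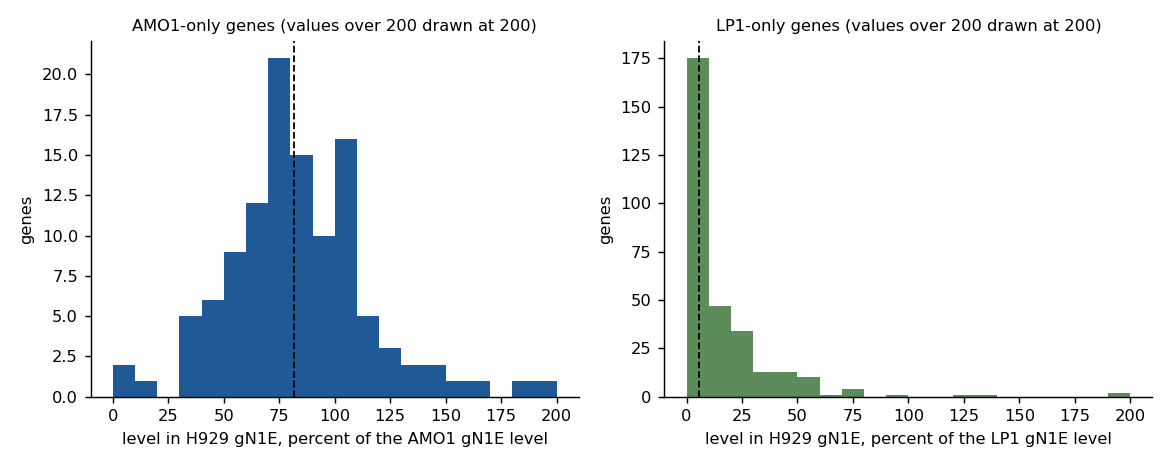
Number of genes by level under the H929 gN1E label, in percent of the AMO1 gN1E level for the 113 genes that LP1 lacks (left) and in percent of the LP1 gN1E level for the 302 genes that AMO1 lacks (right), with dashed medians at 81.8% and 5.75% (ratios of sums 78.3% and 13.1%). Values over 200% are drawn at 200%.

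The 86 genes differed in their level under the LP1 label. Under the LP1 gN1E label, 67 of the 86 were well expressed, 11 were near absent and 8 lay between. Among the 67, the H929 level had a median of 25.8% of the LP1 level, from 1.47% to 979%, and 63 were under the LP1 level. The rule asked for at least 5 CPM in every H929 library, which raises these percents, so they describe the choice. Over the 302 genes chosen without the H929-labelled libraries, the median was 5.75%. RHOB stood at 98.3% of its LP1 level, FHL1 at 50.1%, ITGA8 at 41.8%, APP at 17.6% and MAF at 15.1%. The 11 genes near absent under both other labels were FBP1, BEST3, LINC02817, LINC02562, PDIA2, RALYL, SFRP1, FIGN and the V segments IGLV3-21, IGHV3-30 and IGHV4-31. HGF, a growth factor, had 28.3, 29.6 and 28.9 CPM under the H929 label, 1.18 mean CPM under the LP1 label and 0.0614, 0.0348 and 0 CPM under the AMO1 label. IGHV4-31, PDIA2, RALYL, SFRP1, FIGN and HGF were named after their values were seen. In all, 23 of the 86 had a higher mean under the H929 label than under either other label, namely the 11, the 8 between and 4 of the 67. The limits themselves place all 86 above the AMO1 label and the 11 above the LP1 label. The share over all genes tested was not computed, so nothing is read from this count. Whether the H929-labelled libraries hold RNA of more than 1 line was not tested, and a single line that resembles AMO1 cannot be told apart from a pool by these levels.

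V segments mark clones, and here they showed both a shared and an added set. Segments of a family are alike in sequence and can share reads, so single segments are uncertain. IGHV3-23, the heavy chain V segment with most reads under both labels, had 1943, 2158 and 1852 CPM under the AMO1 label and 1279, 1869 and 1061 CPM under the H929 label. The ranges overlapped, and the log2 difference was -0.50 (standard error 0.247, adjusted p = 0.206, Benjamini-Hochberg over edgeR's quasi-likelihood test). Without H929 gN1E replicate B, the library that overlapped, the adjusted p of the same test was 5.84e-05 with a log2 difference of -0.78. It was 0.000561 with the letter as a replicate block (log2 difference -0.81), and limma-voom gave 0.00587, so the call depends on the fit. In the SCR libraries the mean was higher under the H929 label, at 1858 CPM against 1661, with a log2 difference of 0.16 (adjusted p = 0.524, edgeR's quasi-likelihood test). IGKV3-20, the leading kappa V segment under both labels, had 1684, 1478 and 1697 CPM under the AMO1 label and 1567, 1511 and 1558 CPM under the H929 label. Under the LP1 label the leading kappa segment was IGKV3-15 with 1742, 1798 and 1544 CPM, while IGHV3-23 had 0 CPM in all 3 libraries.

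Added under the H929 label was a lambda segment. IGLV3-21 (ENSG00000211662.2, hg38 chromosome 22, 22711689 to 22713203) had 0.0409, 0 and 0 CPM under the AMO1 label and 1196, 1227 and 1146 CPM under the H929 label, a ratio of 63775 on 2 reads (interval 17654 to 526611). It was the highest of the 86 genes per kb and made up 99.2% of the reads on lambda V segments under the H929 label. IGHV3-30, named after its values were seen, had 0 CPM in all 3 AMO1 libraries and 243, 229 and 233 CPM under the H929 label, at least 8424-fold higher. It was the heavy chain segment next after IGHV3-23, which held 83.0% of heavy chain V reads under the H929 label and 96.9% under the AMO1 label. All 3 H929-labelled libraries therefore carried IGHV3-23 and IGKV3-20, as the AMO1-labelled libraries did, and IGLV3-21 and IGHV3-30 besides. IGKV3D-20, a near copy of IGKV3-20 named after its values were seen, was next among kappa segments under both labels. IGLV3-21 and IGHV3-30 had 0 CPM in all 3 LP1 gN1E libraries.

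Some constant genes were high under both the AMO1 and H929 labels, and others were raised under the H929 label only. IGHA1, the constant gene of the IgA heavy chain, had 8894, 6791 and 7322 CPM under the AMO1 label and 10160, 9630 and 9842 CPM under the H929 label. IGHG1, the constant gene of an IgG heavy chain, had 1.76, 1.15 and 1.34 CPM under the AMO1 label and 760.3, 802 and 761 CPM under the H929 label, with a mean of 0.163 CPM under the LP1 label. The log2 difference of IGHG1 was 9.04 (standard error 0.090). IGHG4 rose from 0.314 to 113 mean CPM, IGHG3 from 0.429 to 107, and IGLC2, a lambda constant gene, from 0.478 to 16.6, and the IgG genes are near copies of each other that can share reads. IGKC, the kappa constant gene and the most abundant of the list under the AMO1 label, had 11347, 10634 and 10723 CPM under the AMO1 label and 9996, 9573 and 9738 CPM under the H929 label. Of the 13 constant and J chain genes tested, 8 were higher and 1 was lower under the H929 label, beside 21.0% and 17.0% of all genes tested, with a median log2 difference of 1.68 beside 0.02. The lower one was IGKC, with an adjusted p of 0.0137 by edgeR's quasi-likelihood test, and 0.08 with the letter as a replicate block.

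Position on the chromosomes was not part of the rule. Of the genes well expressed under the H929 label, 10 of 346 on chromosome X (2.89%) and 10 of 375 on chromosome 4 (2.67%) were near absent under the AMO1 label, the highest shares, followed by 8 of 386 on chromosome 8 (2.07%), against 0 of 292 on chromosome 20, the lowest, and 86 of 10894 over all chromosomes (0.789%). Differences between chromosomes were not tested. To look for neighbours, the 12277 protein coding genes with at least 1 CPM in all 3 libraries of a gN1E label were put in order, of which 537 were near absent under the AMO1 label. Of these, 387 stood alone, 51 runs held 2 genes and 13 runs held 3 or more. How many would stand alone in a random order was not computed, so these counts do not show whether near absent genes lie together. The longest run had 7 genes on chromosome 5, from 129904465 to 132076170 on hg38: CHSY3, HINT1, LYRM7, CDC42SE2, RAPGEF6, FNIP1 and CSF2, all named after their values were seen. The next had 6 genes on chromosome X, BEX5, TMSB15A, ARMCX5, GPRASP1, GPRASP2 and BEX4, named in the same way.

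HINT1, an enzyme that cleaves nucleotide conjugates and is widely expressed, had 0 CPM in all 3 AMO1 gN1E libraries and 13.0, 12.1 and 11.8 CPM under the H929 label. It was at least 439-fold higher under the H929 label and had 189, 202 and 186 CPM under the LP1 label. CDC42SE2, an effector of a small GTPase, had 0 CPM in all 3 AMO1 gN1E libraries and 6.89, 6.55 and 8.05 CPM under the H929 label. FNIP1, a partner of folliculin, had 0 CPM in all 3 AMO1 gN1E libraries and 8.96, 7.78 and 8.03 CPM under the H929 label. Over the 7 genes, the 6 AMO1 libraries of both gapmeR labels held 1 read, on LYRM7. As a percent of the LP1 gN1E level, the H929 level was 6.16% for HINT1, 4.61% for LYRM7, a mitochondrial assembly factor, 7.46% for CDC42SE2, 5.88% for RAPGEF6, an exchange factor of Rap GTPases, and 9.84% for FNIP1. In the SCR libraries these 5 genes stood at 6.61%, 4.59%, 7.35%, 6.02% and 10.3%. The level was 19.4% for CHSY3, a chondroitin synthase, and 0% for CSF2, a cytokine, with LP1 means of 4.92 and 3.70 CPM. The genes that flank the run were expressed under both labels. ISOC1, on one side, had 15.5 mean CPM under the AMO1 label and 18.4 under the H929 label, or 50.4% of its LP1 level. P4HA2, a collagen-modifying enzyme on the other side, had 6.12, 9.56 and 5.51 CPM against 5.15, 4.92 and 4.59 CPM. P4HA2, which the AMO1 libraries do express, was at 9.06% of its LP1 level under the H929 label, within the range of the 5 genes above. Copy number was not measured, and the cause of the run was not tested.

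**Figure D4:**
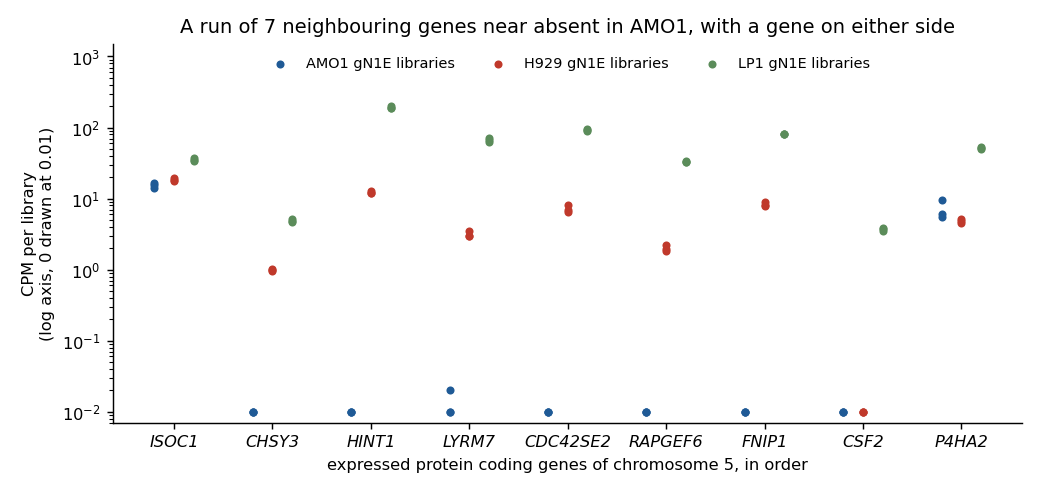
CPM in each gN1E library (log axis, 0 drawn at 0.01) for the 7 neighbouring genes of chromosome 5 and the expressed gene on either side, by label. Between ISOC1 and P4HA2 the AMO1 points lie at 0 except for 1 read of LYRM7, and HINT1 has 11.8 to 13.0 CPM under the H929 label and 186 to 202 CPM under the LP1 label.

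The promoters of 3 of these genes are shown because the genes they start went from 0 reads in one group to steady levels in the other. They are RefSeq sequences of GRCh38.p14, 250 bases before to 50 after the start of the gene, in the direction of transcription, with each CG pair in capitals. The RefSeq start of RELN is that of the gene model counted, whereas those of HINT1 and CKAP4 lie inside the models counted, far downstream of their first base. CG pairs are where human DNA can be methylated, and methylation was not measured. HINT1 lies inside the run on chromosome 5, CKAP4, a membrane protein of the endoplasmic reticulum named after its values were seen, had 0 CPM in all 3 AMO1 gN1E libraries and 16.4, 16.7 and 16.3 CPM under the H929 label, and RELN has the most reads of the protein coding genes.
HINT1, chr5:131165207-131165506, minus strand: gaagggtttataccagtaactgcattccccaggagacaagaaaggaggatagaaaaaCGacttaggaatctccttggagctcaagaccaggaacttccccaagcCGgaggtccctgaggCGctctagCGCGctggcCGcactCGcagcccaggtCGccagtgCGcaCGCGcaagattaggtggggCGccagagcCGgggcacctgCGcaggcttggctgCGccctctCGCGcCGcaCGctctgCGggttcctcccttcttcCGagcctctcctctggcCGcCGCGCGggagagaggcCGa
CKAP4, chr12:106247971-106248270, minus strand: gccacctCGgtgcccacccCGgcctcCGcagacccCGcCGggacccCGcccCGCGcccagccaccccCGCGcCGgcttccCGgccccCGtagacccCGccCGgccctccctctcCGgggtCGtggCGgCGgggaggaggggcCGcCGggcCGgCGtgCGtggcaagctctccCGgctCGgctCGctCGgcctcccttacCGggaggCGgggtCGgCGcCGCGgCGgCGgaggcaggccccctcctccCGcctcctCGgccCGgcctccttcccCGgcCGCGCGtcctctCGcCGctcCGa
RELN, chr7:103989609-103989908, minus strand: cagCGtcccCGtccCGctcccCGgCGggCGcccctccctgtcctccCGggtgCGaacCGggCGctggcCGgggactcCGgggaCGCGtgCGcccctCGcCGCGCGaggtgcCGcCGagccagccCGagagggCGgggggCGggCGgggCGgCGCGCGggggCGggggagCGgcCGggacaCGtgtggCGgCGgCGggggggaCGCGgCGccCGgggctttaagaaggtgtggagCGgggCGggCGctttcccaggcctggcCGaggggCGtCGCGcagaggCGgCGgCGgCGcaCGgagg
They hold 26, 46 and 52 CG pairs, counted as the letters CG, which read the same on both strands. Of the 12380 RefSeq promoters of genes tested, 99.3% hold at least 1 such pair, with a median of 25, and of all 27305 promoters given 95.8% do, with a median of 14. Only 63 of the 86 genes matched a promoter, too few for a comparison of the set on this measure, which is void.

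The libraries labelled SCR were not used to choose the 86 genes, so the same difference was tested there. All 86 were tested, and 86 were higher under the H929 label at a threshold of 0.05 on the Benjamini-Hochberg adjusted p of edgeR's quasi-likelihood test, where 18.3% of 24046 genes were. The largest adjusted p was 8.91e-12, and in 86 of 86 genes every H929 SCR library lay above every AMO1 SCR library, beside 23.4% of all genes tested. Of the 86, 81 were near absent under AMO1 SCR, 83 were well expressed under H929 SCR and 78 met both limits. Their H929 SCR mean was a median of 1.04 times their H929 gN1E mean, from 0.414 to 1.27 times. Cultures of the same labelled lines fed both sets of libraries, so this repeats the difference over libraries and not over lines.

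ABCA8 repeated as well. It had 6.45, 6.37 and 6.17 CPM in the libraries labelled AMO1 SCR and 0.0366, 0.0209 and 0.0283 CPM in those labelled H929 SCR. The log2 difference was -7.65 (adjusted p = 2.3e-15, Benjamini-Hochberg over edgeR's quasi-likelihood test), with 3 of 3 H929 libraries below all AMO1 libraries. RELN had 0.0180, 0 and 0 CPM under AMO1 SCR and 236, 245 and 234 CPM under H929 SCR. IGLV3-21 had 0.0180, 0 and 0 CPM under AMO1 SCR and 1139, 1189 and 984 CPM under H929 SCR. When the rule was applied to the SCR libraries afresh, 95 genes were well expressed under H929 and near absent under AMO1 (0.395% of those tested), and 1 the other way. Over 110 genes that LP1 SCR lacks, chosen afresh in the SCR libraries, the median under H929 SCR was 82.9% of the AMO1 SCR level. Over 306 genes that AMO1 SCR lacks, chosen likewise, it was 6.54% of the LP1 SCR level. The ratios of the summed levels were 90.9% and 11.8%, beside 78.3% and 13.1% for the sets chosen in the gN1E libraries. Measured in the SCR libraries, the 113 and 302 genes chosen in the gN1E libraries had medians of 82.9% and 5.98%.

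Whether the difference between the AMO1 and H929 labels itself differed between the gN1E and SCR libraries was tested as an interaction over 12 libraries. By edgeR's quasi-likelihood test, 0 of 24578 genes had an adjusted p under 0.05, 1568 had an unadjusted p under 0.05, and the smallest adjusted p was 0.151. With the replicate letter within each line as a replicate block, chosen after seeing the data, the count was also 0, with 2085 genes at an unadjusted p under 0.05 and a smallest adjusted p of 0.0514. Of the 86 genes, 33 had 0 reads in all 6 AMO1 libraries, where this interaction cannot be estimated, so nothing is read from it for the 86. Leaving out AMO1 SCR replicate C gave 5 genes, and leaving out AMO1 gN1E replicate A, H929 SCR replicate B or H929 gN1E replicate C gave 2 each. A p above the threshold does not show that the differences were equal.

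MHC class II genes, which present antigen, were lower under the H929 label in 11 of 12 and higher in 0 (edgeR's quasi-likelihood test, adjusted p under 0.05), beside 17.0% and 21.0% of all genes tested, with a median log2 difference of -0.68 beside 0.02 over all genes tested. With counts scaled by library size only, that median was -0.69. HLA-DQA1 had 133, 131 and 143 CPM under the AMO1 label and 65.3, 63.2 and 64.4 CPM under the H929 label, with a log2 difference of -1.08 (standard error 0.051), and its LP1 mean was 0.0543 CPM. HLA-DRB1 had mean CPM of 224 and 112, and copies of HLA-DRB genes can share reads. CIITA, the activator of these genes, had 279, 251 and 259 CPM under the AMO1 label and 187, 191 and 198 CPM under the H929 label. Its LP1 mean was 5.51 CPM, so HLA-DQA1 and CIITA lay between their AMO1 and LP1 levels in all 3 H929-labelled libraries. A gene that is low under the LP1 label and only partly lower under the H929 label lies there in any case. Nothing is therefore read from this order, and LP1 levels of the other class II genes are not given.

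Of 16 B cell genes tested, 6 were higher and 3 were lower, beside 21.0% and 17.0% of all genes tested, with a median log2 difference of 0.20. FCER2, the low-affinity IgE receptor, had 6.28, 4.80 and 5.75 CPM under the AMO1 label and 0.526, 0.288 and 0.265 CPM under the H929 label. BLK, a kinase of the B cell receptor, rose from 6.18 to 13.2 mean CPM, and BTK, another kinase of that pathway, went from 9.40 to 5.78. PAX5 and MS4A1, defining B cell genes that plasma cells switch off, were under 0.1 CPM in all 6 libraries.

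Of 22 surface antigens and adhesion molecules tested, 4 were higher and 11 were lower, beside 21.0% and 17.0% of all genes tested, with a median log2 difference of -0.05. NCAM1, the adhesion molecule CD56, had 66.7, 67.3 and 65.0 CPM under the AMO1 label and 36.2, 34.9 and 37.0 CPM under the H929 label. CD28, a costimulatory receptor of myeloma cells, went from 255 to 146 mean CPM, and ITGA6, an integrin subunit, from 61.5 to 105. Of the 23 tumour suppressors lost in myeloma, 6 were higher and 12 were lower, beside 21.0% and 17.0% of all genes tested, with a median log2 difference of -0.14. CDKN2C, an inhibitor of cyclin-dependent kinases, had 47.3, 47.2 and 48.8 CPM under the AMO1 label and 111, 118 and 118 CPM under the H929 label, a log2 difference of 1.28 (standard error 0.053). CDKN2A, an inhibitor of the same family, rose from 35.1 to 71.1 mean CPM. None of these suppressors was near absent in either group.

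Cancer-testis, housekeeping and paraspeckle lists come last. Beside 21.0% of all genes tested higher and 17.0% lower, 5 of 20 cancer-testis antigens were higher and 3 were lower, with a median log2 difference of 0.04, and MAGEB2, the one that moved most, went from 17.7 to 27.0 mean CPM. Among 26 housekeeping genes, 8 were higher and 7 were lower, with a median of 0.01, and TFRC, the transferrin receptor, moved most, from 560 to 832 mean CPM. The paraspeckle list of 12 tested genes also holds MALAT1, an RNA of nuclear speckles, and in it 3 were higher and 2, MALAT1 and PSPC1, were lower, with a median of 0.11. PSPC1, a paraspeckle protein, fell from 84.8 to 63.8 mean CPM.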

How the data were processed

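Stranded total RNA libraries were sequenced, and the authors deposited 1 table of raw counts per library, from STAR 2.7.10a alignments to hg38 counted by featureCounts 1.6.4 against GENCODE release 43, per the submitters' notes and the file headers. Symbols matched 62686 of 62703 gene identifiers. Groups followed the sample labels. CPM, shares and intervals were computed with Python 3.11.15, numpy 2.4.6, pandas 2.3.3 and scipy 1.17.1, and figures with matplotlib 3.10.9. Tests used edgeR 4.0.16 in R 4.3.3 (TMM, robust quasi-likelihood fit, genes reaching 10 reads in at least 1 library of the fit, Benjamini-Hochberg adjusted p under 0.05), and they were tested on simulated data. The genes named are NEAT1, MALAT1, the 12 near absent genes per class with the highest CPM per kb (symbol, no V segment), 5 on each side of each limit, the leading V segments, and up to 6 per gene list that differ most at 5 CPM or more, with defining members near 0. XIST, TSIX and genes of chromosome Y are not shown. The comparison and the lists were chosen with earlier results of these data known. Alternatives were limma-voom 3.58.1, DESeq2 1.42.0, RLE factors, library size only, other filters and limits, thinned counts, a joint fit, the replicate letter as a block, leaving out each library, and a 1.5-fold change at an adjusted p of 0.1. Alternatives for the interaction and the LP1 shares, and the NEAT1 and ABCA8 values with a library left out, were chosen after seeing the data.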

Additional observations from a re-analysis of the deposited data

How the results depend on the processing

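The count of 8812 genes stayed within 1.5 times under limma-voom (8646), DESeq2 (8140), RLE factors (8798), library size only (8830), no filter (8950), at least 1 CPM in 3 libraries (7792) and a joint fit (8892), and ran from 7461 to 8641 with 1 library left out. With a 1.5-fold limit at an adjusted p of 0.1 it was 3988 (2482 higher and 1506 lower), since that rule adds a fold limit. With the letter as a replicate block it was 5975 (3376 higher and 2599 lower). By the labels, A and C are the only letters both groups have. Over 11011 genes, deviations from the group mean correlated between same-letter libraries at -0.0395 for A and 0.18 for C, so no pairing was established. The written name of H929 gN1E replicate C has the letter D, which neither the block nor these correlations used. The 86 genes near absent under the AMO1 label became 243 at a limit of 1 CPM for well expressed and 41 at 10 CPM, and the 1 gene of the other class became 2 (PKHD1L1 and ABCA8, the former named after its values were seen) and 0, since those limits admit more or fewer genes. With 1 library left out the first count was 85 to 92. Repeats in the SCR libraries counted 86 of 86 genes under every alternative run. The median of 81.8% was 79.6% at 20 CPM, 85.9% with near absent under 0.5 CPM, 78.3% as a ratio of sums and 80.8% to 82.9% with 1 library left out. The median of 5.75% was 5.14% at 1 CPM, 5.28% with near absent under 0.5 CPM, 6.48% on library size only, 13.1% as a ratio of sums and 5.57% to 5.85% with 1 library left out; the cause was not tested. The lowest share, 0.309% for ABCA8, ran from 0.147% to 0.461% with 1 library left out. The interaction count of 0 ran from 0 to 5 with 1 library left out and was 0 with the letter within each line as a replicate block. There, gN1E and SCR libraries of the same letter correlated at 0.359, 0.266 and 0.169 for A, C and D in AMO1 and at -0.0237, -0.0478 and -0.19 for A, B and C under the H929 label. NEAT1 stayed past no threshold, at -0.04 to 0.08 on the log2 scale with 1 library left out. Of 60 named genes checked one by one in up to 14 other fits, 2 changed a call. IGHV3-23 gained one under limma-voom (adjusted p = 0.00587), the replicate block (0.000561) and without H929 gN1E replicate B (5.84e-05), and IGKC lost one under the replicate block, which changed no other call among these genes. Depth limits the near absent genes: 0 reads in a group bound a level by 3 reads, not by absence.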

Other observations

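IGKV3-15, the leading kappa V segment under the LP1 label, was uneven between replicates of the other labels. It had 25.7, 0.452 and 20.3 CPM in AMO1 gN1E replicates A, C and D and 14.9, 0.422 and 0.381 CPM in H929 gN1E replicates A, B and C. The SCR libraries had 0.629, 16.1 and 0.586 CPM in AMO1 replicates A, C and D and 22.7, 0.565 and 0.453 CPM in H929 replicates A, B and C. The log2 difference between the gN1E labels came to -1.60 (standard error 1.72, adjusted p = 0.547, Benjamini-Hochberg over edgeR's quasi-likelihood test), so the spread within labels exceeded the difference between them.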
